A study of Mus musculus with 12 samples.

Results

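Endothelial cells line the blood vessels of the brain, and 259 nuclei of this kind were found among 51683 nuclei of mouse motor cortex that passed the quality limits (of 51926 barcodes deposited). A nucleus was counted as endothelial when it had at least 500 detected genes, under 5% mitochondrial UMIs (unique molecular identifiers, 1 per captured transcript), and at least 4 UMIs of Flt1, Cldn5, Ly6c1 and Pecam1 together. Up to 2 UMIs of the neuronal genes Slc17a7, Gad1 and Gad2 together, and up to 1 UMI of the mural and fibroblast genes Rgs5, Abcc9, Dcn and Slc6a13 together, were allowed. Nuclei were isolated from flash-frozen right primary motor cortex (its caudal forelimb area) of 6 mice aged 13 weeks, and sequenced by droplet-based 3' single-nucleus RNA-seq. Every mouse was limited to 1 mL of water per day. Control mice 1, 3 and 5 kept drinking in the home cage without motor training. Trained mice 2, 4 and 6 were head-fixed on days 11 to 13 and pressed a lever with the left paw in daily sessions of 100 trials, taking part of their water as reward. The replicate is the mouse, 3 in each group, and values are listed in the order of the mouse numbers within a group. The labels give neither strain nor sex, and the cells came from intact tissue with no sort for vessels.

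Brain endothelium forms the blood-brain barrier. Its cells are sealed by tight junctions of claudin-5 and occludin, have few transport vesicles, pump lipid-soluble compounds back into the blood, and carry glucose, amino acids, thyroid hormone and iron inward through dedicated transporters. Canonical Wnt signalling through Lef1 maintains this state, VEGF, angiopoietin and Notch signals shape the vessels, and Klf2 and Klf4 respond to blood flow. Along the vessel tree the cells change gradually from arteries through capillaries to veins, and each segment has its own genes.

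Promoters of 3 genes that led the endothelial nuclei are printed because transcription factors of the ETS family (Erg, Fli1 and Ets1, all detected in these nuclei) recognise a GGAA core that is common in endothelial genes. They are RefSeq sequences on build GRCm38.p6, from 250 bases before to 50 after the start, with AGGAAG, or CTTCCT on the other strand, in capitals. Flt1, a receptor for VEGF, is shown for chr5:147725962-147726261 (minus strand), Slco1a4, an organic anion and hormone transporter, for chr6:141856171-141856470 (minus strand), and Adgrl4, an adhesion receptor of vessels, for chr3:151437632-151437931 (plus strand).
Flt1: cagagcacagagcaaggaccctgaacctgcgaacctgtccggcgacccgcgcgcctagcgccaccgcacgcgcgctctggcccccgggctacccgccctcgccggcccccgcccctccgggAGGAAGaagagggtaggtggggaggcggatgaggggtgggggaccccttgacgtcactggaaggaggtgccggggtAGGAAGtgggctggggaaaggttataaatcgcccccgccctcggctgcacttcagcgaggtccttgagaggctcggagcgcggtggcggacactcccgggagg
Slco1a4: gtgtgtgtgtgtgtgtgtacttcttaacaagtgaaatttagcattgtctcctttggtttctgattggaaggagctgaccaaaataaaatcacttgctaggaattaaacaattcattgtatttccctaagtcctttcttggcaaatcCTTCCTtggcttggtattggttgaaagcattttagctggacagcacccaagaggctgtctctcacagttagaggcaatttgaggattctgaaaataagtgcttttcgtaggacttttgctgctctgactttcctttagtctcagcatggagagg
Adgrl4: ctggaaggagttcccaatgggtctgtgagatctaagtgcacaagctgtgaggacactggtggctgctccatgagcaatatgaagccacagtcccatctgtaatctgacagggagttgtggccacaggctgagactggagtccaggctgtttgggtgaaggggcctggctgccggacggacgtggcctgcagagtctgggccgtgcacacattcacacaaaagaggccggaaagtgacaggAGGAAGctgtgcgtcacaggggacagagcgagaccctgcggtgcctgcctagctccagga
The Flt1 window held 2 matches and the others 1 each. Of 19 endothelial marker genes searched, 15 had a promoter in the table, and 10 of these held a match in at least 1 window, where a gene can have several. AGGAAG in either direction occurred in 35.4% of 32851 mouse promoters of this length. The motif search is a description of letters, not of binding.

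Genes that the selection did not use were endothelial too in most nuclei. Of the 259 nuclei, 254 had at least 3 UMIs of 15 further endothelial genes (Cdh5, Kdr, Tek, Tie1, Erg, Ptprb, Adgrl4, Abcb1a, Slco1a4, Slc2a1, Mecom, Emcn, Egfl7, Esam and Cyyr1). Summed, these 15 genes stood at 9748 to 17400 CPM (UMIs of a gene per 1000000 UMIs of the endothelial sum of a mouse), against a mean of 64.8 CPM in the 51424 other nuclei. In 3 nuclei none of the 15 had a UMI, and those nuclei held 29, 11 and 33 UMIs of fibroblast markers. The selection cannot be read as a test of any of these genes, since all were measured in the nuclei that were chosen. At the edge of the selection, the 6 nuclei with exactly 4 marker UMIs had a median of 8.5 UMIs of the 15 genes. The 4 nuclei just outside it, with 3 marker UMIs and the other limits met, had a median of 0.5.

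Endothelial nuclei were shallow, with a median of 1605 UMIs and 1060 genes against 6258 UMIs in the other nuclei. The numbers of nuclei were 43, 78 and 33 in control mice and 47, 36 and 22 in trained mice, and their summed UMIs ran from 53937 in mouse 6 to 194100 in mouse 3. Every endothelial barcode had distinct letters, and 2 of them also occurred in another mouse (311 of 51613 barcodes did so in the whole series). Scrublet, a doublet caller, marked 19 of the 259. Part of the summed RNA came from a few deep nuclei with many neuronal transcripts: 28 nuclei had at least 5 UMIs of Syt1, Snap25 and Rbfox3 together, at a median of 9215 UMIs against 1536 in the other 231, and 14 of them were among those marked by Scrublet. These 28 nuclei held 55.8%, 37.3% and 12.3% of the UMIs in control mice 1, 3 and 5, and 34.0%, 37.1% and 34.3% in trained mice 2, 4 and 6. The cut falls in a continuous range, with 13 nuclei at 4 to 6 such UMIs. Results on sums are therefore given for all 259 nuclei and again for the 231, an alternative chosen after seeing the data.

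**Figure D1:**
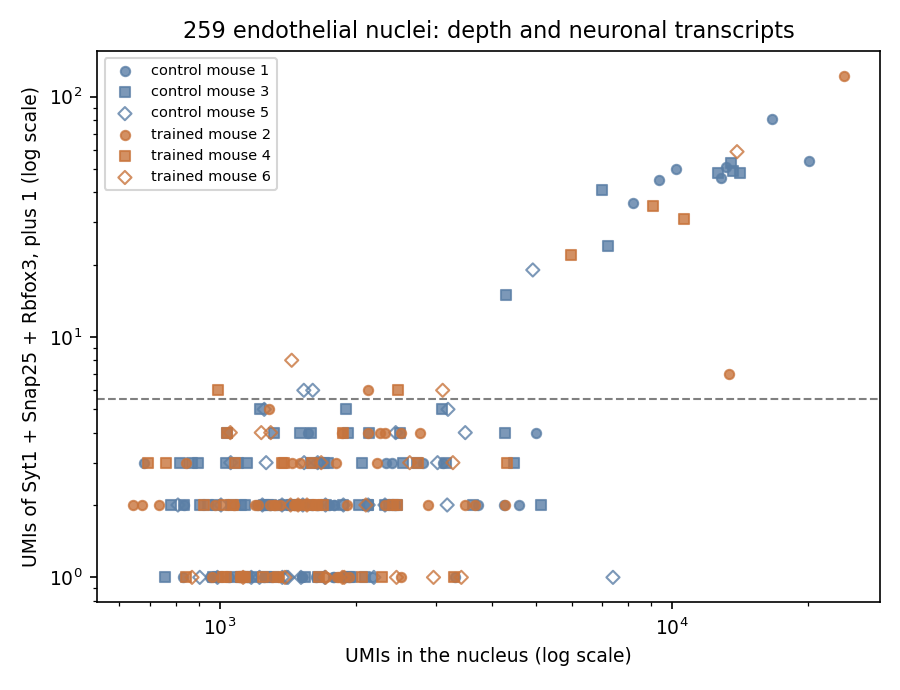
Each point is 1 of the 259 endothelial nuclei, by its total UMIs (log axis) and its UMIs of Syt1, Snap25 and Rbfox3 with 1 added (log axis), and the dashed line separates nuclei with 5 or more such UMIs. The 28 nuclei above the line are mostly deep, at a median of 9215 UMIs, and the 231 below it have a median of 1536.

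Markers of neurons and oligodendrocytes were present, in most mice below the mean of the other nuclei and in some above it. The 7 glutamatergic markers summed to 1111 to 1822 CPM in the 6 mice against a mean of 1780 CPM in other nuclei, and still to 874 to 1824 CPM in the 231 nuclei. The 7 GABAergic markers ran from 167 to 367 CPM (other nuclei 327) and the 7 oligodendrocyte markers from 107 to 742 CPM (other nuclei 634). The 5 oligodendrocyte precursor markers reached 301.5 CPM in trained mouse 2 and were at 15.5 to 76.4 CPM elsewhere, the 7 microglial markers ran from 25.5 to 321 CPM, and the 5 border macrophage markers reached 185 CPM in control mouse 1. Other classes were uneven between mice. In other nuclei the mean sums were 69.8 CPM for mural, 77.1 CPM for fibroblast and 335 CPM for astrocyte markers. Each of these was exceeded in at least 1 mouse. The 10 mural markers summed to 12.3, 36.1 and 641.6 CPM in untrained mice and 43.1, 63.7 and 111.2 CPM after training, with Abcc9 at 0, and 1 nucleus of mouse 5 held 32 such UMIs. The selection limits Rgs5 and Abcc9 here, Dcn and Slc6a13 among the fibroblast markers, and Slc17a7, Gad1 and Gad2 among the neuronal ones. Low counts of these genes are therefore partly set by the selection. The 8 fibroblast markers reached 178.7 CPM at most in control mice and 630.4 CPM in trained mouse 6. The 8 astrocyte markers ran from 141.7 to 304.0 CPM in control and from 152.9 to 889.9 CPM after training, with Gfap at 0. Hemoglobin transcripts were concentrated in 1 nucleus of control mouse 5, which held 2557 of them among 7405 UMIs. Lymphocyte markers summed to under 6.17 CPM in every mouse, with Cd3e and Skap1 at 0, and the 4 ependymal and choroid plexus markers had no UMI.

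Slco1a4 and Flt1 were the most distinctive transcripts. Flt1 was at 3515 ± 578 CPM (SD, n = 6 mice) against 4.72 in other nuclei, and Slco1a4 at 3209 ± 1130 CPM against 2.91. With 5 CPM added to both sides, Slco1a4 was 406-fold and Flt1 362-fold above the other nuclei, followed by Adgrl4 (303-fold), Ly6c1 (284-fold), the zinc-finger factor Mecom (250-fold) and Cldn5 (201-fold). Hemoglobin genes are left out of this order: Hba-a1 had a ratio of 218 but was at 0 in at least 1 mouse. A Slco1a4 UMI was present in 95.8% of endothelial and 0.197% of glutamatergic nuclei, although the latter had a median depth of 13568 UMIs. After thinning nuclei of at least 1000 UMIs to 1000 UMIs (229 endothelial nuclei kept, 30 left out, and 5082 glutamatergic nuclei kept, 1 left out) the shares were 87.8% and 0.0197%. These ratios come from the nuclei that were selected on Flt1, Cldn5, Ly6c1 and Pecam1 and carry no test.

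**Figure D2:**
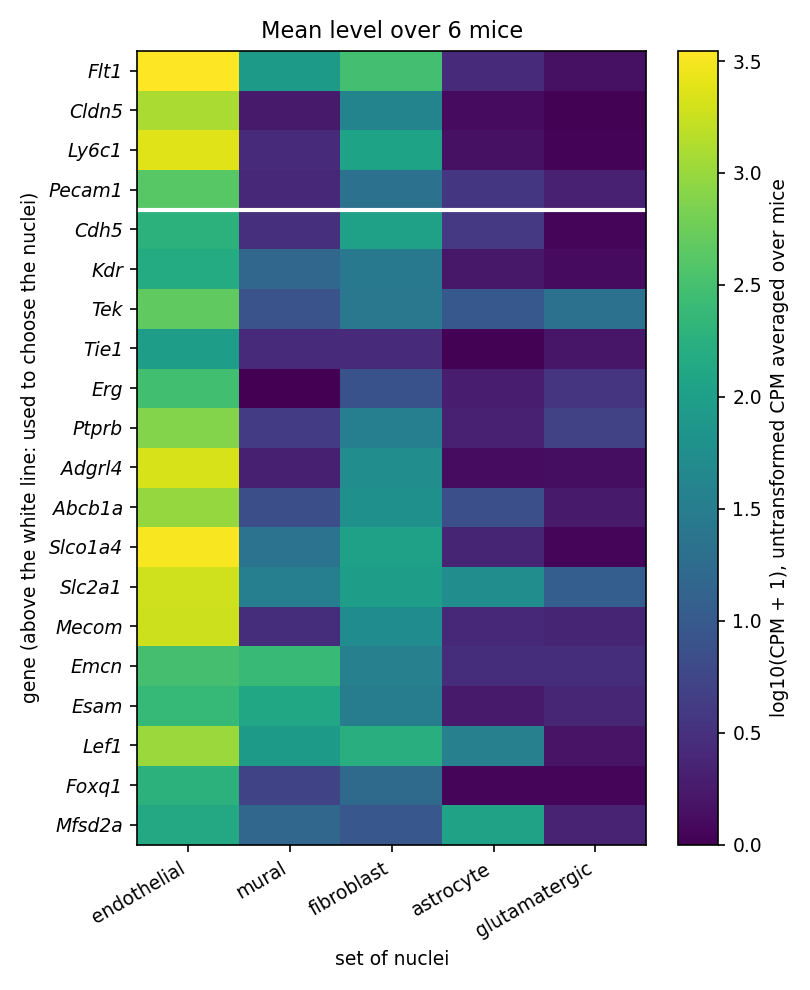
Colour gives log10(CPM + 1) of the mean over 6 mice for 20 genes (rows) in endothelial, mural, fibroblast, astrocyte and glutamatergic nuclei (columns), with the 4 genes of the selection above the white line. Flt1 (3515 CPM) and Slco1a4 (3209 CPM) are brightest in the endothelial column, Emcn is nearly as high in mural nuclei (320 against 243 CPM), and Mfsd2a nearly as high in astrocytes (136 against 109 CPM).

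The barrier genes were present at graded levels. Among junction genes, Cldn5 stood at 1259 ± 385 CPM, Ocln (occludin) at 303 ± 62.2 CPM and Cdh5 (VE-cadherin) at 188 ± 57.4 CPM, each under 3 CPM in other nuclei, while Tjp1, the scaffold ZO-1, was at 1887 ± 311 CPM and also at 731 CPM in astrocytes. Cgn and Cldn12 had 3 and 5 UMIs in all. CPM here is not divided by transcript length, so levels of different genes are not ranked.

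Transporters and pumps covered the known routes across the barrier. Slc2a1, the glucose transporter GLUT1, was at 1924 ± 595 CPM against 16.8 in other nuclei. Slc7a5, which carries large neutral amino acids, was at 549.8 ± 121 CPM, Slc6a6 (taurine) at 1065 ± 352 CPM and Slco1c1 (thyroid hormone) at 1038 ± 169 CPM, the last also at 612 CPM in astrocytes. The efflux pumps Abcb1a (P-glycoprotein), Abcg2 and Abcc4 stood at 956 ± 287, 877.5 ± 267 and 868 ± 542 CPM, whereas Abcb1b had 6 UMIs. Igf1r, the receptor for insulin-like growth factor 1, was at 3905 ± 441 CPM against 212 in other nuclei, and after thinning 90.0% of endothelial and 19.7% of glutamatergic nuclei had a UMI.

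Several genes known from leaky or inflamed vessels had few or no UMIs. They were picked for that after their values were seen, and others of the leukocyte adhesion and inflammation list were present, such as Nfkbia, an inhibitor of NF-kappaB (312 CPM on average), and Il1r1 (196 CPM). Plvap, the diaphragm protein of fenestrated vessels, had 2 UMIs in 259 nuclei (0.772% of them), and its share in glutamatergic nuclei was 9.23% at their greater depth. Sele, Ccl2 and Lcn2, which inflamed endothelium makes, had no UMI, and neither had Esm1, a tip-cell gene, Pgf, a VEGF-family ligand, or Ager, the receptor for glycation end products. A count of 0 in 259 nuclei allows up to 1.16% of nuclei with a UMI. Selp had 1 UMI and Icam1 had 6. Among ligands and receptors of vessel growth, Tek (the angiopoietin receptor) was at 476.5 ± 155 CPM, Kdr (the main VEGF receptor) at 149 ± 43.6 CPM and Aplnr at 3 UMIs. Lef1, the Wnt effector, stood at 1023 ± 254 CPM with its target and partner Foxq1 at 191 ± 52.9 CPM, against 4.14 and 0.355 CPM in other nuclei. Of the ETS factors, Fli1 was at 671 ± 197, Ets1 at 339 ± 163 and Erg at 299 ± 88.4 CPM.

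Nuclei were split by the arterial and venous gene lists. After thinning to 1000 UMIs, a nucleus was called arterial-rich when it had at least 2 UMIs of the 14 arterial genes and more of them than of the 11 venous genes, and venous-rich in the reverse case. Of 229 nuclei, 45 were arterial-rich, 30 venous-rich and 154 neither, and 15 and 9 of the called nuclei lay next to the cut. These are ranges of a score, not cell types. Mgp (matrix Gla protein) contributed 87 of the arterial UMIs, in 22 arterial-rich nuclei, with 6 UMIs in venous-rich nuclei. Bmx, a kinase gene of arteries, had 27 and 0 UMIs, Gkn3 22 and 0, and Sox17 39 and 7. On the venous side Il1r1, the interleukin-1 receptor, had 43 UMIs in venous-rich and 0 in arterial-rich nuclei, and Vwf, von Willebrand factor, 25 and 5. All of these genes belong to the lists that made the split, so their contrasts follow from it and are no finding. The median of the 8 capillary genes, which took no part in the split, was 1 UMI in arterial-rich, 4 in venous-rich and 3 in the remaining nuclei. Whether the venous-rich class includes capillary nuclei was not tested.

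Other genes also differed between arterial-rich and venous-rich nuclei, but no call of the smaller fit was left without 3 nuclei. With every mouse that had at least 5 nuclei of both classes, which left control mice 1 and 5, edgeR's quasi-likelihood test with mouse as a block and Benjamini-Hochberg adjustment called 8 of 146 genes (5.48%) outside the arterial and venous lists. Arl15, a small GTPase gene (chromosome 13, 113794505 to 114157461, mm10), was higher in arterial-rich nuclei by 3.20 ± 0.51 on the log2 scale (SE), as were the chemokine gene Cxcl12 by 3.68 ± 0.93, Tm4sf1 by 2.94 ± 0.88 and Igfbp7, an insulin-like growth factor binding protein, by 1.97 ± 0.60. Frmd5, the semaphorin Sema6a, Flrt2 and Dnm3 (dynamin 3) were lower in arterial-rich nuclei, with log2 differences of -2.46 ± 0.60, -3.58 ± 0.96, -4.33 ± 1.20 and -1.69 ± 0.50. DESeq2 called none of these at an adjusted p under 0.05 (16 genes at an unadjusted p under 0.05), and splitting the nuclei without thinning left 3 calls. Mural markers moved with the arterial class: the 45 arterial-rich nuclei held 44 mural UMIs, 32 of them in 1 nucleus of mouse 5, against 1 in the 30 venous-rich nuclei. Igfbp7 was at 2211 CPM in mural and 878 CPM in endothelial nuclei, and Tm4sf1 at 312 and 375 CPM. Without the 3 arterial-rich nuclei that had at least 3 mural UMIs, all of mouse 5, 0 of 126 genes were called (12 at an unadjusted p under 0.05). The log2 differences themselves stayed close, at 3.19 ± 0.50 for Arl15, 3.93 ± 0.69 for Cxcl12, 2.94 ± 0.85 for Tm4sf1 and 1.90 ± 0.71 for Igfbp7. They were -2.37 ± 0.61 for Frmd5, -3.92 ± 1.11 for Sema6a and -1.52 ± 0.37 for Dnm3, and Flrt2 was not tested.

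A second fit, added after seeing the data, took all 6 mice with at least 2 nuclei of each class and called 14 of 86 genes (16.3%), 7 in each direction. Some of its sums rest on very few nuclei: mouse 4 had 2 arterial-rich nuclei, and mice 2, 3 and 6 had 3, 4 and 2 venous-rich ones. Values per mouse from these sums are imprecise. Timp3, an inhibitor of matrix metalloproteinases, was at 966, 955 and 1800 CPM in arterial-rich nuclei of control mice and at 1702, 969 and 1561 CPM in those of trained mice. In venous-rich nuclei of the same mice it was at 313, 427 and 342 and at 504, 90.3 and 0 CPM, so it was higher in the arterial-rich nuclei of all 6 mice. Its log2 difference was 2.29 ± 0.46, with an edgeR adjusted p of 0.000202. Arl15 was at 3301, 2453 and 4067 and at 1447, 485 and 2146 CPM in arterial-rich nuclei, against 500, 569 and 257 and 336, 542 and 962 CPM in venous-rich ones, higher in 5 of 6 mice (2.39 ± 0.41, adjusted p = 1.65e-05). Id3, a target of BMP signalling, differed by 1.56 ± 0.43, higher in 5 of 6 mice, and Igfbp7 by 1.30 ± 0.40, higher in 4 of 6. In mice 3 and 4 Igfbp7 was at 2143 and 485 CPM in arterial-rich and at 2278 and 722 CPM in venous-rich nuclei.

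In the same fit Lef1 was higher in venous-rich nuclei. It stood at 1047, 723 and 733 and at 681, 485 and 1561 CPM in arterial-rich nuclei of control and trained mice, and at 1938, 996 and 2824 and at 1679, 2166 and 3206 CPM in venous-rich nuclei. Venous-rich nuclei were thus above arterial-rich ones in 6 of 6 mice, with a log2 difference, arterial minus venous, of -1.02 ± 0.34 (edgeR adjusted p = 0.0307). The same direction in every mouse was found for Tbc1d4, a regulator of glucose transporter traffic (-1.52 ± 0.36), Rasal2, a Ras GTPase activator (-1.56 ± 0.38), and Dnm3 (-1.08 ± 0.34). Adgrl3 (latrophilin 3) was lower in arterial-rich nuclei as well (-1.99 ± 0.44), with 37 UMIs there and 83 in venous-rich nuclei. Of its 677 UMIs in all endothelial nuclei, in either class or not, 360 lay in the 28 nuclei with neuronal RNA. It was not among the genes tested in the fit without those nuclei. Without the 3 nuclei with mural UMIs the same 14 genes were called, of 80 tested. Without the nuclei with neuronal RNA 9 of 79 genes were called, among them Arl15, Timp3, Id3, Igfbp7, Lef1, Tbc1d4, Rasal2 and Dnm3. The number of calls in 6 mice ran from 5 without trained mouse 2 to 15 without trained mouse 4. Median depth was 1950 UMIs in arterial-rich and 1629.5 in venous-rich nuclei, and its part in these differences was not tested.

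**Figure D3:**
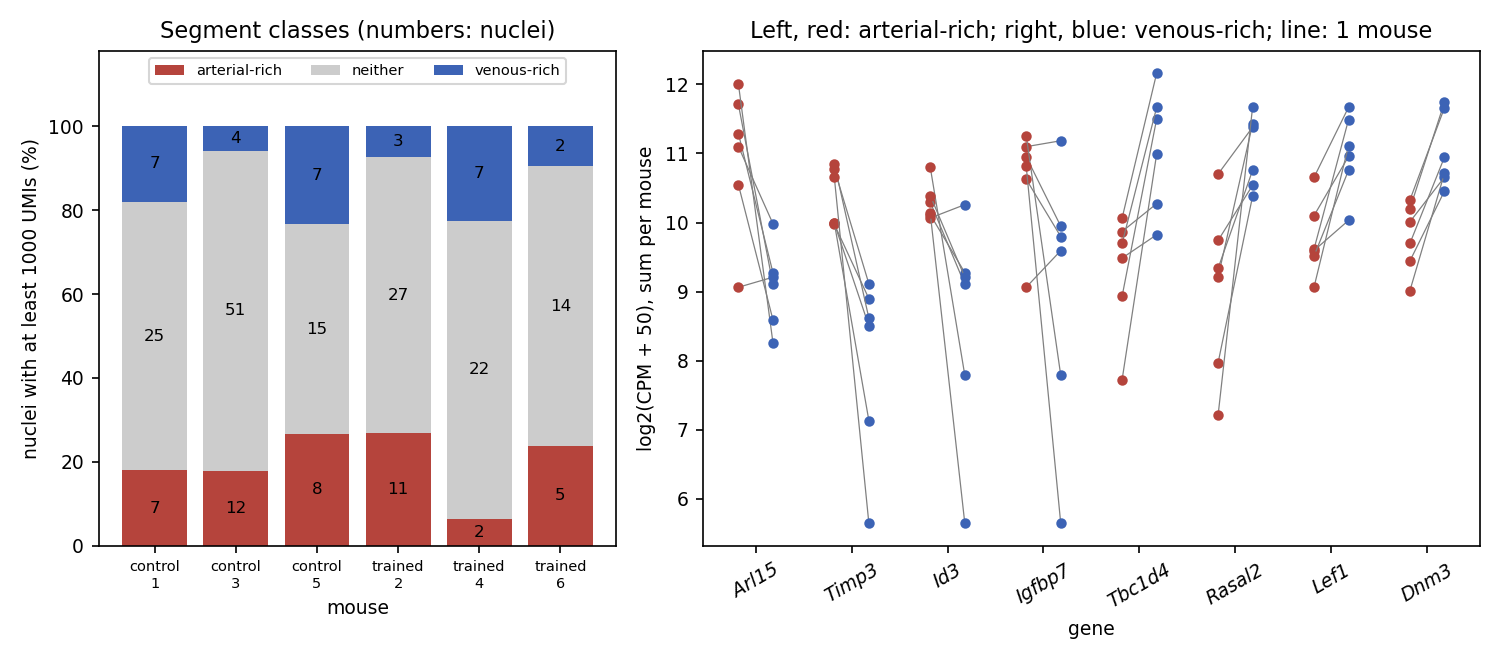
Left, the share of arterial-rich, venous-rich and remaining nuclei of at least 1000 UMIs per mouse in percent, with numbers of nuclei in the bars. Right, log2(CPM + 50) of 8 genes in arterial-rich (red) and venous-rich (blue) sums joined per mouse. Timp3 is higher in the arterial-rich sums, and Lef1, Tbc1d4, Rasal2 and Dnm3 in the venous-rich sums, in all 6 mice.

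The abundance of endothelial nuclei was compared between groups first. They made up 0.423%, 0.622% and 0.429% of kept nuclei in control mice and 0.663%, 0.416% and 0.396% in trained mice. Control mouse 3 and trained mouse 2 were high, the other 4 mice lay close together, and the groups overlapped. Means were 0.492% ± 0.113 and 0.492% ± 0.148 (SD, n = 3 each). The exact permutation test, two-sided, gave p = 1.0, and its smallest possible p with 3 against 3 mice is 0.1. The difference had no stable sign: without trained mouse 2 it was -0.0854 percentage points, and without control mouse 3 it was 0.0655.

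Segment shares did not differ beyond the spread between mice either. Arterial-rich nuclei were 17.9%, 17.9% and 26.7% of the endothelial nuclei of control mice and 26.8%, 6.45% and 23.8% of those of trained mice. Trained mouse 4 was the lowest of all, with 2 of 31 nuclei. The means were 20.8% ± 5.04 and 19.0% ± 11.0 (SD, n = 3 each), with an exact permutation p of 0.9, also 0.9 after adjustment over the 2 shares. Counting only nuclei with at least 3 list UMIs turned the difference from -1.81 to 2.80 percentage points. Venous-rich nuclei were 17.9%, 5.97% and 23.3% in control and 7.32%, 22.6% and 9.52% in trained mice, and the difference of -2.61 percentage points had the same exact p of 0.9.

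In endothelial nuclei, trained and control mice differed past the threshold in no gene. Of 2144 genes tested by edgeR's quasi-likelihood test on the sums of all 259 nuclei, 0 (0%) had a Benjamini-Hochberg adjusted p under 0.05, and 51 (2.38%) had an unadjusted p under 0.05. All trained mice lay above all controls for 83 genes (3.87%) and below them for 64 (2.99%). In the 231 nuclei with under 5 UMIs of Syt1, Snap25 and Rbfox3, 0 of 1348 genes (0%) passed, 45 (3.34%) had an unadjusted p under 0.05, and 51 (3.78%) and 61 (4.53%) had no overlap between groups in the 2 directions. DESeq2 called 1 gene in the first set (48 at an unadjusted p under 0.05) and 0 in the second. On simulated sums of the same size, 14% of genes with a 2-fold and 78% with a 4-fold change were recovered beside 5 false calls. These sums had independent genes and 1 common dispersion (0.106). Changes near 2-fold were thus mostly not detectable at this depth. In the measured sums, Erbb4 differed by 3.30 ± 1.07 and Mgat4c by -2.64 ± 0.43 on the log2 scale. Their edgeR adjusted p values were 0.999 and 0.255. Whether the share of 78% holds for the measured genes was not tested. The genes that follow are those of smallest p with no overlap between groups, and none passed the correction.

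Mgat4c, an N-acetylglucosaminyltransferase gene, had the smallest p. It was at 401, 515 and 901 CPM in untrained mice and at 94.8, 127 and 55.6 CPM after training, and the groups did not overlap. The log2 difference was -2.64 ± 0.43 (SE), with an edgeR adjusted p of 0.255, and it was the gene that DESeq2 called. However, 218 of its 248 UMIs came from the 28 nuclei with neuronal RNA. In the other 231 nuclei it was at 41.8, 156 and 0 CPM in control and 39.2, 81.1 and 28.2 CPM after training, and the groups overlapped. Slc8a1, a sodium-calcium exchanger gene, had 136 of its 163 UMIs in those 28 nuclei (-1.82 ± 0.49), and its groups stayed separate in the 231.

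Among the higher genes Cdc42ep3, an effector of the GTPase Cdc42, was at 49.3, 46.4 and 30.6 CPM in control and 121, 217 and 111 CPM after training (1.69 ± 0.46). Myh9, non-muscle myosin heavy chain, was at 105, 129 and 107 and at 362, 166 and 241 CPM (1.15 ± 0.37), and Gcnt2, a glycan-branching enzyme, at 142, 134 and 122 and at 276, 229 and 297 CPM (0.95 ± 0.31). Both kept separate groups in the 231 nuclei, with log2 differences of 1.12 ± 0.39 and 0.98 ± 0.34. Msn (moesin, which links actin to the membrane), the nuclear receptor Ppard, Cttnbp2nl and the ribosomal protein gene Rpl7 were also higher in value, with log2 differences from 1.05 to 1.15. Every adjusted p of these 7 was 0.999 by edgeR.

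On the lower side, Prkar1a, the regulatory subunit of protein kinase A (chromosome 11, 109649405 to 109669656, mm10), had separate groups in all nuclei. The naming rule required this. The groups stayed separate in the 231 nuclei, but these are part of the same nuclei and give no independent test. Over all nuclei Prkar1a had few UMIs, 21, 27 and 17 in control and 6, 8 and 3 in trained mice. It was at 129, 139 and 260 CPM in control and 51.7, 102 and 55.6 CPM after training (-1.27 ± 0.43), and at 195, 181 and 279 against 78.3, 60.8 and 84.6 CPM in the 231 nuclei (-1.49 ± 0.46). Scg5, a secretory granule protein, was at 136, 165 and 183 and at 94.8, 51.0 and 74.2 CPM (-1.09 ± 0.36). Cnot2, Map2k4, Acin1 and Man1a had log2 differences between -1.02 and -1.12. Adjusted p was 0.999 for all 6 by edgeR.

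**Figure D4:**
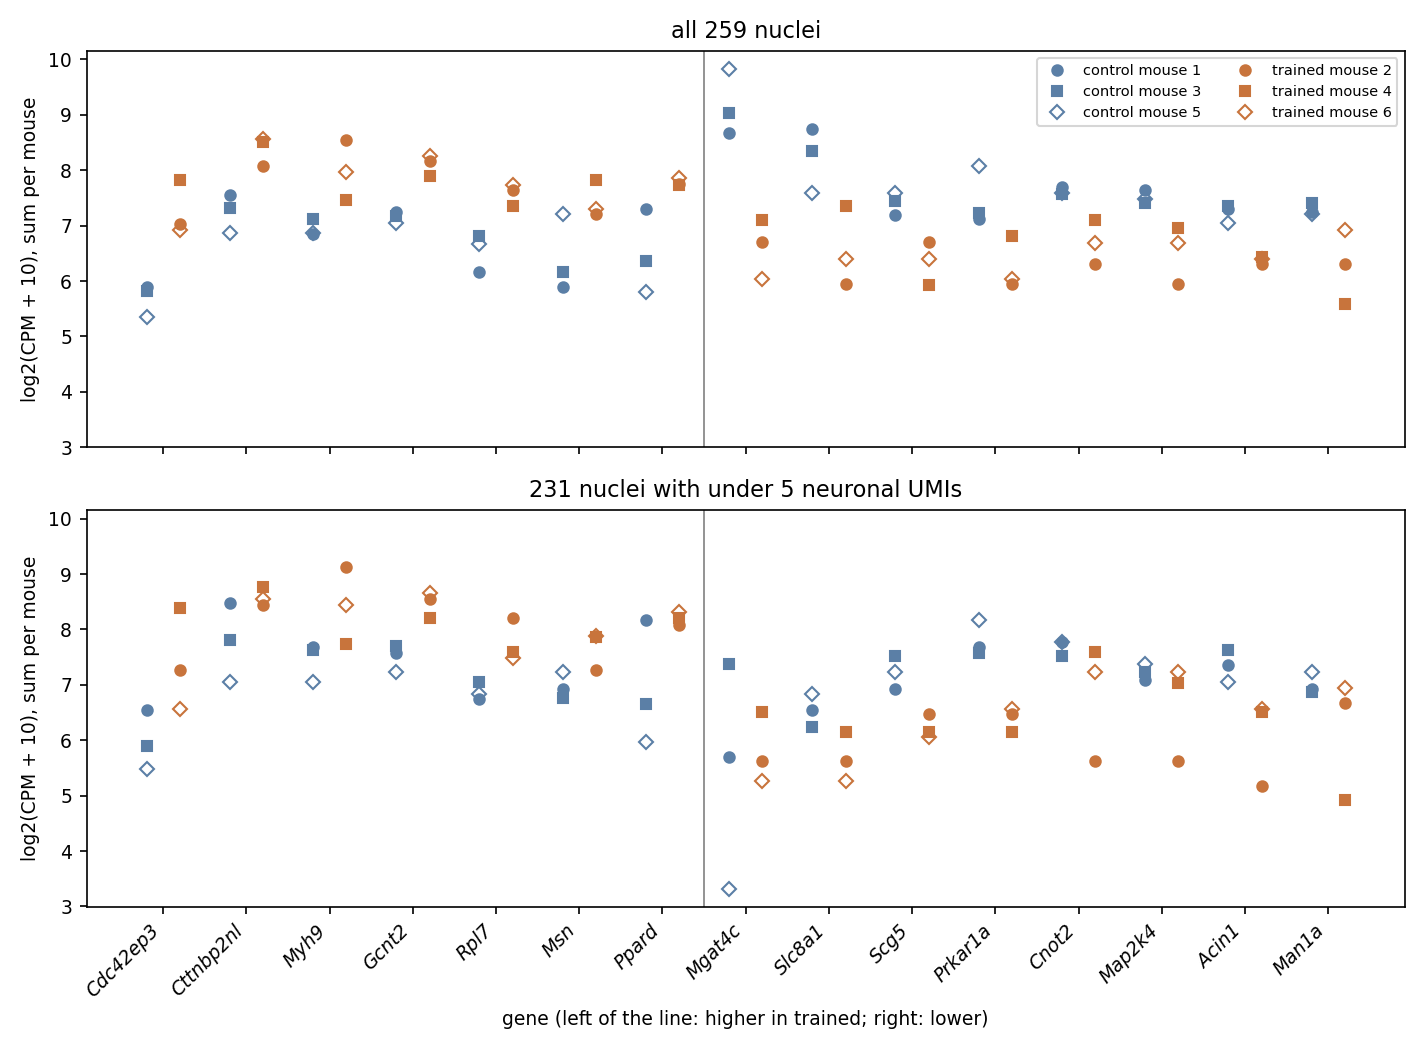
Each point is log2(CPM + 10) of 1 mouse for 15 named genes, control and trained mice apart, in all 259 nuclei and in the 231 with under 5 neuronal UMIs. Groups are separate for all 15 genes in the 259 nuclei by the naming rule, and in the 231 they overlap for 6 genes (Mgat4c, Cttnbp2nl, Ppard, Cnot2, Map2k4 and Man1a) and stay separate for 9.

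The same naming rule applied to the 231 nuclei, a choice made after seeing the data, brought in several endothelial genes. Tfrc, the transferrin receptor through which iron enters the brain (chromosome 16, 32608920 to 32632794, mm10), was at 488, 428 and 505 CPM in untrained mice and 222, 223 and 197 CPM after training. Separate groups were required by the naming rule, and 61 of 1348 genes (4.53%) had them on the lower side in these nuclei. The log2 difference of Tfrc was -1.11 ± 0.31 (unadjusted p = 0.00292), with an edgeR adjusted p of 1.00, and in all 259 nuclei it was -0.73 ± 0.33. S1pr1, the sphingosine-1-phosphate receptor of vessel integrity, was at 515, 477 and 470 and at 770, 588 and 1156 CPM (0.77 ± 0.31). Ets1 was at 613, 452 and 749 and at 326, 304 and 395 CPM (-0.81 ± 0.31), and Cp, the ferroxidase ceruloplasmin, at 306, 419 and 296 and at 91.4, 162 and 282 CPM (-1.08 ± 0.41). None of these passed the correction.

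Barrier genes lay on both sides of the control level. Of 16 junction genes 10 were tested, with 4 higher and 6 lower in trained mice, a median log2 difference of -0.08 and 0 called, beside -0.01 over all genes (1052 higher, 1092 lower). In the 231 nuclei 3 were higher and 7 lower (median -0.19), beside -0.01 over all genes there (663 higher, 685 lower). Of 20 transporters 16 were tested, 10 higher and 6 lower, with a median of 0.06, and in the 231 nuclei 7 were higher and 8 lower (-0.02). Slc2a1 was at 1368, 1793 and 1528 CPM in control and 2929, 1593 and 2336 CPM after training (0.52 ± 0.33), where trained mouse 4 lay within the controls. Slc40a1, the iron exporter ferroportin, was at 117, 103 and 367 and at 51.7, 166 and 55.6 CPM (-0.95 ± 0.61), and Slc7a1, a carrier of cationic amino acids, at 388, 933 and 1650 and at 689, 637 and 408 CPM (-0.75 ± 0.48). The 3 tested efflux pumps had a median of 0.26 (0.31 in the 231 nuclei), and Abcc4 was set apart by trained mouse 6, at 1947 CPM against 456 to 779 in the other mice. Of 14 transcytosis genes 8 were tested (5 higher, 3 lower, median 0.03), a tally that turned in the 231 nuclei (2 higher, 5 lower, median -0.21). Cav1, caveolin 1, was at 123, 51.5 and 183 and at 34.5, 25.5 and 148 CPM (-0.89 ± 0.71).

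Signalling lists were mixed. In the Wnt list 8 of 12 tested genes were higher and 4 lower (median 0.07), and in the 231 nuclei the tally was the reverse, 4 higher and 8 lower (median -0.05). Lef1 was at 887, 757 and 1390 CPM in control and 801, 1057 and 1242 CPM after training. Of 15 VEGF, angiopoietin and apelin genes only 4 were tested, 2 in each direction, and in the 231 nuclei 1 was higher and 3 lower. Adgrl4 was at 1294, 1566 and 1894 and at 2774, 2026 and 3374 CPM, with no overlap in all 259 nuclei (0.76 ± 0.32, unadjusted p = 0.0402, adjusted p = 0.999 by edgeR). In the 231 nuclei its groups overlapped, at 2591, 2384 and 2056 against 3760, 2514 and 4089 CPM. Hes1 was the 1 of 14 Notch genes deep enough to test, at 67.8, 196 and 137 and at 164, 204 and 130 CPM. In the TGF-beta and BMP list 2 of 8 were higher (median -0.09; 3 of 8 and -0.10 in the 231 nuclei), and Smad7, an inhibitor of the pathway, was at 129, 165 and 137 and at 215, 217 and 204 CPM (0.51 ± 0.30). Of the transcription factors 6 of 13 were higher (median -0.04; 4 of 13 and -0.05 in the 231 nuclei), and of the flow response genes 4 of 8 (median 0.05; 5 of 9 and 0.06), and Klf2 was at 1041, 1515 and 1604 and at 1482, 1147 and 908 CPM.

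Of 20 genes of leukocyte adhesion and inflammation 7 were tested, 2 higher and 5 lower (median -0.10; 2 and 4, median -0.16, in the 231 nuclei). Il1r1 was at 136, 77.3 and 550 and at 60.3, 115 and 241 CPM (-0.83 ± 0.74), and its sign turned without control mouse 5. In the basement membrane and integrin list 7 of 10 were higher (median 0.10), but 4 of 9 in the 231 nuclei. Lamc1, the laminin gamma 1 chain, was at 49.3, 61.8 and 107 and at 138, 102 and 185 CPM (1.02 ± 0.43, unadjusted p = 0.0398). In the 231 nuclei the highest log2 difference among the tested genes of that list was 0.33, which covers Lamc1 only if it was among the 9 tested there. Insulin and IGF genes were split 4 to 4, and 4 to 2 in the 231 nuclei, with Foxo3 at 92.4, 67.0 and 153 and at 112, 229 and 241 CPM (0.92 ± 0.43). Igf1r stood at 3063, 3957 and 4094 and at 4367, 4001 and 3949 CPM. None of these lists held a called gene, in 259 or 231 nuclei.

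Hormone and activity responses had more members on the higher side. In the glucocorticoid list 7 of 9 tested genes were higher, with a median of 0.21 (7 of 9 and 0.28 in the 231 nuclei), and 0 were called. Tsc22d3, the glucocorticoid-induced leucine zipper, was at 123, 196 and 76.4 and at 301, 344 and 167 CPM (0.94 ± 0.41, unadjusted p = 0.0462), and Zbtb16, a zinc-finger gene induced by glucocorticoids, at 283, 412 and 137 and at 233, 866 and 686 CPM (0.98 ± 0.53). Cdkn1a, the cell-cycle inhibitor p21, was tested only in the 231 nuclei, at 167, 57.6 and 87.1 and at 601, 162 and 141 CPM (1.74 ± 0.55), where trained mouse 2 held the high value. Fkbp5 had 58 UMIs and was at 123, 61.8 and 30.6 and at 86.1, 63.7 and 167 CPM.

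Of 25 immediate early genes, which cells transcribe within minutes of a stimulus, 10 were tested, 8 higher and 2 lower (median 0.16; the same numbers and 0.24 in the 231 nuclei). Ier2 was at 98.6, 201 and 153 and at 164, 369 and 185 CPM (0.62 ± 0.42) and Ier3 at 86.3, 273 and 91.7 and at 293, 446 and 92.7 CPM (0.81 ± 0.58), and for both the groups overlapped. Egr1 was lower, at 111, 124 and 122 and at 34.5, 63.7 and 111 CPM (-0.94 ± 0.47). In the 231 nuclei the lowest log2 difference among the tested genes of this list was -0.03. That value covers Egr1 only if it had enough counts to be tested there. Fos had 17 UMIs in all 259 nuclei, at 18.5, 20.6 and 137 and at 8.61, 0 and 0 CPM, too few to test.

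All 7 tested genes of the mitochondrial genome were higher in trained mice, with a median log2 difference of 0.57, and 0 were called. Their transcripts are made outside the nucleus. mt-Co3 was at 240, 283 and 611 CPM in control and 680, 701 and 630 CPM after training (0.86 ± 0.38), and control mouse 5 was near the trained mice for most of the list. The mitochondrial share of endothelial UMIs was 0.0967%, 0.118% and 0.321% in control and 0.246%, 0.296% and 0.287% in trained mice. In the 231 nuclei the median was 0.35, and the shares were 0.170%, 0.172% and 0.347% and 0.333%, 0.330% and 0.220%. With this share as a covariate edgeR called 7 genes (5 higher, 2 lower), against 0 without it.

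**Figure D5:**
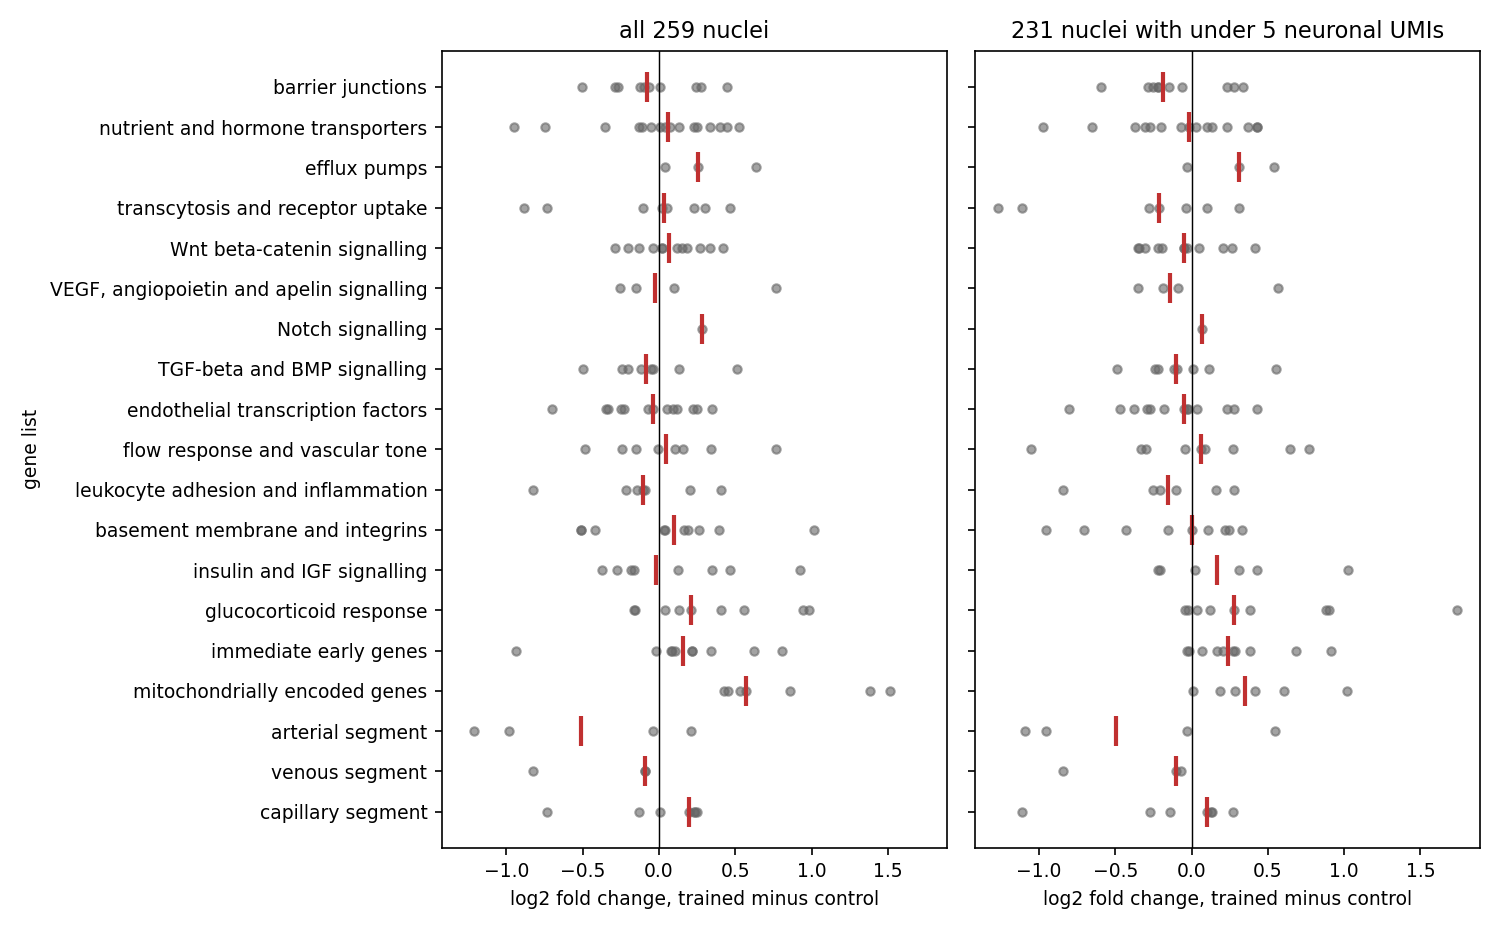
Grey points are log2 fold changes (trained minus control) of the tested genes of each list, in all 259 nuclei (left) and in the 231 with under 5 neuronal UMIs (right), and red bars are list medians. The mitochondrially encoded genes are the furthest to the right (median 0.57 and 0.35), and most other medians lie within 0.3 of 0 apart from the arterial list.

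Segment lists gave few testable genes. Of 14 arterial genes 4 were tested (1 higher, 3 lower, median -0.51, and -0.49 in the 231 nuclei), and Mgp was at 210, 510 and 550 CPM in control and 301, 25.5 and 204 CPM after training (-1.21 ± 0.63). All 3 tested venous genes were lower (median -0.09), and 5 of 7 capillary genes were higher (median 0.20; 4 of 7 and 0.10 in the 231 nuclei). Trained mouse 4, with 25.5 CPM of Mgp, was also the mouse with 2 arterial-rich nuclei, but Mgp is on the list by which those nuclei were called.

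Whether the training difference was the same in endothelial and other nuclei was tested as an interaction in edgeR, with mouse as a block. Against 552 mural nuclei, chosen by Rgs5, Abcc9, Pdgfrb and Notch3, 0 of 4705 genes (0%) passed, and 137 had an unadjusted p under 0.05. The 2 genes of smallest p in each direction were Lhfpl3 and Erbb4, and Eogt and Aldoc, all with an adjusted p of 1.00. Eogt, an enzyme that modifies Notch receptors, was at 339, 386 and 474 and at 293, 217 and 352 CPM in endothelial nuclei and at 4.87, 7.22 and 8.22 and at 34.8, 65.5 and 19.3 CPM in mural nuclei.

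Against 5865 astrocyte nuclei, 15 of 12282 genes (0.122%) passed. The smallest p was that of Mgp (chromosome 6, 136872435 to 136875823, mm10), an inhibitor of calcification and BMP signals. In astrocytes it was at 9.88, 5.23 and 4.75 CPM in untrained mice and 34.0, 32.9 and 26.1 CPM after training, with no overlap (2.25 ± 0.25, adjusted p = 0.00459). The endothelial difference given above had the opposite sign, and the interaction was -3.49 ± 0.44 (edgeR adjusted p = 1.84e-11). It stayed past the threshold with each mouse left out and in the 231 nuclei (-3.53 ± 0.42), and DESeq2 gave an adjusted p of 0.527. Mgp was also at 1266 CPM in mural and 180 CPM in fibroblast nuclei, and the part of free RNA in its low astrocyte level was not tested. Among the other calls, Adarb2, Erbb4 and Hs3st4 had 145 of 158, 197 of 225 and 121 of 132 endothelial UMIs in the 28 nuclei with neuronal RNA. Without those nuclei 3 genes passed.

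Against all 51424 other nuclei 7 of 17665 genes (0.0396%) passed, and DESeq2 called none (195 genes at an unadjusted p under 0.05). Mgp differed again, by -1.85 ± 0.37 (edgeR adjusted p = 0.00701), a call lost when control mouse 3, or either of the trained mice 4 and 6, was left out. In the other nuclei it was at 5.74, 10.7 and 7.78 CPM in control and 10.4, 10.0 and 19.2 CPM after training. Without the 28 nuclei with neuronal RNA, Mgp was the 1 call left (-1.94 ± 0.39, adjusted p = 0.0136).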

How the data were processed

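Nuclear RNA of 6 mice was measured by 10x 3' single-nucleus RNA-seq in a shallow and a deep run. UMI counts, raw and whole, were deposited by the authors as 1 matrix of genes by nuclei, made with Cell Ranger 4.0.0 on mm10 per the submitters' processing notes. Whether it joins both runs is not given in the sources used here, and each mouse was 1 replicate. The suffix of each barcode gave the mouse, per the labels. Nuclei were chosen by the marker limits given above, and their counts were summed per mouse. Testing used R 4.3.3 with edgeR 4.0.16 (quasi-likelihood test, TMM, filterByExpr, Benjamini-Hochberg over all genes tested, threshold 0.05), with DESeq2 1.42.0 as the alternative. All genes named in the selection limits were left out, and in the segment fits those of the arterial and venous lists as well. CPM is of the whole sum, without TMM. Shares were tested by exact two-sided permutation in Python 3.11.15. Scrublet (scanpy 1.11.5) assumed 6% doublets, and marked nuclei were kept. The edgeR script was tested on simulated data. Gene positions came from the GENCODE annotation of mm10, promoters from RefSeq. The 19 gene lists, the markers and the members were chosen with earlier results of these data known. Named genes were the 8 higher and 8 lower of smallest p with no overlap between groups (predicted, mitochondrial and selection genes left out), per list the leading 2 tested members and up to 3 of smallest p, up to 8 each way between segments, and 2 each way per interaction. Items withheld from this text are not reported here. Log2 differences of list genes are printed where they exceed their standard error. Genes named for 0 or few UMIs, for Igf1r, Fkbp5, Cdkn1a or by the 231 nuclei fall outside this rule and were chosen after their values were seen. Alternatives were tried for the tool, filter, scaling, marker limit, thinning, covariates, neuronal, hemoglobin and mural RNA and each mouse left out.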

Additional observations from a re-analysis of the deposited data

Results flagged for a closer look

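For several genes the training difference in the endothelial sums was not that of other nuclei by the interaction test, each at an edgeR adjusted p under 0.05, and DESeq2 called none of them. Against astrocytes 15 genes passed. Mgp differed by -3.49, with a lower endothelial and a higher astrocyte level in trained mice. Hs3st4, a heparan sulfate sulfotransferase, differed by -3.65, Adarb2, an RNA-binding protein, by 3.83, and Erbb4, a neuregulin receptor, by 3.42. These last 3 had 121 of 132, 145 of 158 and 197 of 225 endothelial UMIs in the 28 nuclei with neuronal RNA, and no call was left for them without those nuclei, where Hs3st4 and Adarb2 turned sign.

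Against all other nuclei 7 genes passed. Mgp differed by -1.85, Hs3st4 by -3.57, Adarb2 by 3.45 and Lhfpl3, a gene of oligodendrocyte precursors, by 2.41. Adarb2 was at 1580 CPM in endothelial nuclei of trained mouse 4 and at 24.6 to 172 CPM in the other mice, and 70 of the 90 Lhfpl3 UMIs lay in trained mouse 2, 89 of the 90 in the 28 nuclei. Without those nuclei Mgp was the 1 call left.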

How the results depend on the processing

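No paired analysis was possible because the groups share no replicate numbers. The count of 0 genes between trained and control mice became 1 with DESeq2 or with median UMIs as covariate, 7 with mitochondrial percent as covariate and 14 without the low-count filter, and ran from 0 to 2 with a mouse left out (2 without control mouse 5). The count of 0 in the 231 nuclei became 5 without the filter and 1 without control mouse 3. Against mural nuclei 9 genes passed without the filter. Against astrocytes the count of 15 became 0 with DESeq2 (190 genes at an unadjusted p under 0.05), 8 without the filter and 3 without nuclei with neuronal RNA, and ran from 6 to 19 with a mouse left out (6 without trained mouse 4, 9 without control mouse 3 or trained mouse 2). Against other nuclei the count of 7 became 0 with DESeq2, 4 at a minimum of 6 marker UMIs, 3 without the filter and 1 without nuclei with neuronal RNA, and ran from 2 (without control mouse 1 or 3) to 18 (without control mouse 5). The 8 arterial against venous calls became 0 with DESeq2, 3 without the filter, 3 without thinning 0 without nuclei with mural UMIs and 14 with 6 mice (5 to 15 with a mouse left out, 14 without nuclei with mural UMIs). Leaving out mice from the fit of 2 mice, and the minimum of 3 list UMIs in it, could not be run.

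The difference in endothelial share ran from -0.0854 to 0.0655 percentage points with a mouse left out. That in the arterial-rich share ran from -5.71 to 4.48, and was 2.80 at 3 list UMIs. That in the venous-rich share ran from -7.50 to 1.18. Nfkbia turned from 0.41 to -0.17 when nuclei were thinned before summing. With a mouse left out, Il1r1 ran from -1.42 to 0.19 (without control mouse 5) and Abcc4 from -0.12 (without trained mouse 6) to 0.93. Without nuclei with neuronal RNA, Adarb2 turned to -0.55 (astrocytes) and -0.76 (other nuclei), Hs3st4 to 0.17 and 0.15, and Lhfpl3 to -9.11. Against other nuclei Lhfpl3 ran from -1.29 (without trained mouse 2) to 3.52. The cause was not tested. Of the other values for single genes under these settings, 1195 kept direction and side of the threshold, 57 lost and 7 gained the threshold. Depth limits all of this: 22 to 78 nuclei per mouse.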
